A study of Mus musculus with 4 samples.

Results

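The genes described here are the 69 mouse genes, of 19938 with a symbol of their own on the array, whose symbol is Gpr followed by a number and at most 1 letter. These are the names under which G-protein-coupled receptors were catalogued before their ligands were known. They were picked by symbol alone, and each gene was read from the probe set with the highest mean. "Orphan" fits them only in part. Several have since been given a ligand, and 10 were put here in a group of membrane proteins not counted as classical receptors. RNA came from ILC87-Ik1-ER cells, a line grown from a thymic tumour that arose in an Ikaros f/f Lck-cre+ mouse, in which Cre is driven by the T-cell *Lck* promoter. The labels give the strain as C57BL/6, whereas the study's methods put mice of this genotype on a mixed background that is C57Bl/6 only in part. The cells had been transduced with a MigR1 retrovirus carrying the Ikaros isoform Ik1 fused to the hormone-binding part of the oestrogen receptor (ER), with GFP as a reporter, and GFP-positive cells were sorted. Cells received 100 nM 4-hydroxytamoxifen (4OHT), which activates the fusion protein, or its solvent ethanol (EtOH) for 24 h, with 2 arrays per treatment. Both treatments carry Ik1-ER, and no array of 4OHT-treated cells without Ik1-ER was used here, so that the effects of 4OHT itself and of active Ik1 cannot be told apart. All arrays come from 1 cell line, and nothing in the labels says that arrays of a treatment are separate cultures, so the p-values rest on the spread among these arrays, which may be technical.

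G-protein-coupled receptors cross the plasma membrane several times and, once a ligand binds, activate a heterotrimeric G protein inside the cell. Depending on the G protein, this raises or lowers cyclic AMP, releases calcium or moves the cytoskeleton. Receptor kinases and arrestins then silence the receptor, and RGS proteins switch the G protein off. In T cells, receptors of this kind sense chemoattractants, lipids, nucleotides and acid, and position the cell within tissues.

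After 4OHT, *Gpr162* and *Gpr65* rose and *Gpr83* fell, while the other 66 genes did not pass the test. The largest of these changes was that of *Gpr83*, which went from about 2.87 above the array median (log2) in EtOH to 0.14 above it in 4OHT. All values are log2 expression values from the robust multi-array average (RMA), so that a difference of 1 is a doubling of signal. A gene was called changed where limma, fitted over all 35556 probe sets, gave a Benjamini-Hochberg adjusted p under 0.05.

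Of the 3 changed genes, the promoters of *Gpr83* and *Gpr65* are shown because Ikaros proteins bind DNA around the letters GGGAA or AGGAA, and the RNA of these genes moved. The RNA of *Gpr162* moved too, but this gene had no entry among the promoters used here, so no sequence is shown for it. The sequences are the 250 bases before the annotated RefSeq start in the mouse assembly GRCm38.p6, chr9:14859960-14860209 for *Gpr83* and chr12:98268385-98268634 for *Gpr65*, both on the plus strand. They are written 5′ to 3′, and capitals mark matches to GGGAA or AGGAA on either strand, so that TTCCT is AGGAA read on the opposite strand.
Gpr83: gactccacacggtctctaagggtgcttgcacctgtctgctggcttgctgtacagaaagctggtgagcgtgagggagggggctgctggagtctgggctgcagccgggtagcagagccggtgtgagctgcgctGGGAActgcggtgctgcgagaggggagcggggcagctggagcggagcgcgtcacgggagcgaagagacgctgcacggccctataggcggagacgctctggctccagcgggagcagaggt
Gpr65: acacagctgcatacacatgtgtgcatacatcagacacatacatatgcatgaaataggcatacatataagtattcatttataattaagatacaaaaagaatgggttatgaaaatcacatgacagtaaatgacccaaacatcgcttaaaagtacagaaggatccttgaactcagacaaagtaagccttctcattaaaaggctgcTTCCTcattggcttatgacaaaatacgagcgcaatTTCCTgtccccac
The *Gpr83* promoter held 1 match, a GGGAA 119 to 115 bases before the start. The *Gpr65* promoter held 2 matches, both AGGAA on the opposite strand, 48 to 44 and 13 to 9 bases before the start. Such matches are common. Of 32851 mouse promoters in the same table and of the same length, 82.3% held at least 1 match to either motif (60.3% AGGAA, 56.2% GGGAA), and 53.6% held at least 2. Both motifs contain GGAA, which is also the core of ETS-family sites. A match is a description of the letters and not a binding site.

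The Gpr-numbered genes were, as a set, dim. Relative to the mean array median, their means over the 4 arrays lay between −2.75 and 3.11, with a median of −0.74, whereas the median of all genes was 0.17. Of the 69 genes, 20 (29%) were above the array median on all 4 arrays, against 50.1% of all genes, 45 were below it on all 4, and 4 lay on either side. The files hold no detection calls, so the 1239 probe sets of smell, pheromone and taste receptors, which T cells are not expected to use, served as a description of dim signal. By this measure 33 Gpr-numbered genes (47.8%) lay above the 95th percentile of those probe sets on both arrays of at least 1 treatment, against 64.2% of all genes, and 36 did not. With the 99th percentile the count was 18. Probes differ in how well they bind, so positions describe probe sets and do not rank RNA amounts between genes.

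**Figure D1:**
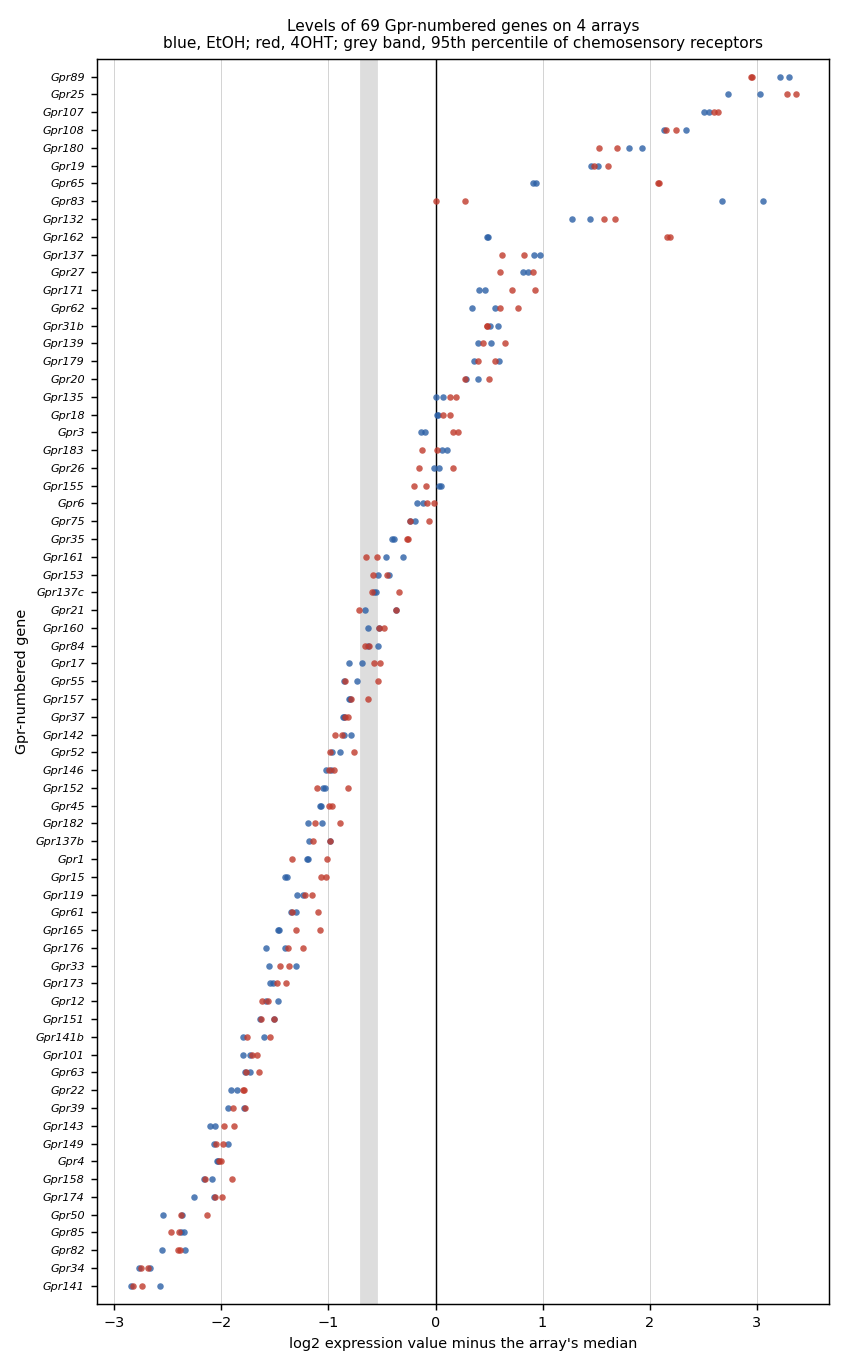
Log2 expression value minus the array's median (x axis) for each of the 69 Gpr-numbered genes (y axis), with blue points for the 2 EtOH arrays and red points for the 2 4OHT arrays. The grey band spans the 95th percentile of the chemosensory receptor probe sets on the 4 arrays; 20 genes lie right of the median line on all arrays, and *Gpr83*, *Gpr162* and *Gpr65* show the widest gaps between colours.

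The cells had the RNA of T cells. All 9 measured T-cell markers were bright, with treatment means of 9.89 to 13.29, although *Cd3d*, a chain of the T-cell receptor complex, fell by 0.94 (adjusted p = 0.0172, limma). Markers of natural killer cells lay at 4.13 to 4.99 and those of B cells at 4.72 to 6.88. Those of erythroid cells lay at 6.33 to 7.09 and those of myeloid cells at 5.07 to 7.27. Above the chemosensory level were 0 of 4 natural killer, 2 of 4 B-cell, 2 of 3 erythroid and 4 of 7 myeloid markers. Summed over the 7 myeloid markers the log2 values were 43.12 to 43.43 in EtOH and 42.74 to 43.09 in 4OHT, with *Itgam* higher (0.68, adjusted p = 0.0239) and *Lyz2* lower (−1.24, adjusted p = 0.0104). Their part in the results below was not tested, and in bulk RNA fewer cells of a type and less RNA per cell cannot be told apart.

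In the limma fit, 3 of the 69 genes (4.35%) passed the test, against 4.23% of all genes, which is close to the background. In the higher direction these were 2 genes (2.9%, background 1.23%), and in the lower direction 1 gene (1.45%, background 2.99%). At an unadjusted p under 0.05 there were 10 genes (14.5%, background 20.4%), of which 8 were higher and 2 lower. The calls rest on few arrays. Without EtOH replicate 1 or without EtOH replicate 2 none of the 19938 genes passed the test, with 7 and 6 Gpr-numbered genes higher and 2 and 1 lower at an unadjusted p under 0.05 by limma.

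*Gpr83* encodes a receptor first found as a glucocorticoid-induced transcript of a T-cell line and is expressed in brain and in regulatory T cells. Its values were 9.80 and 10.18 in EtOH and 7.16 and 7.39 in 4OHT. Both EtOH arrays were far above both 4OHT arrays, with a gap of 2.41 between the nearest pair, which is wider than the 0.38 between the EtOH arrays. The change was −2.71 ± 0.16 (SE), a 6.55-fold decrease (adjusted p = 0.00952, limma). Without 1 EtOH array the change was −2.90 or −2.52, with an adjusted p of 0.108 without replicate 1 and 0.124 without replicate 2.

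*Gpr162* encodes an orphan receptor known mainly from brain and related to *Gpr153*. It read 7.61 and 7.60 in EtOH and 9.35 and 9.28 in 4OHT, so that the arrays of a treatment nearly coincided and the treatments were 1.67 apart at the nearest. The change was 1.71 ± 0.074 (SE), or 3.28-fold (adjusted p = 0.00704, limma). The adjusted p became 0.110 with the EtOH 1 array left out and 0.133 with the EtOH 2 array left out. Its relative *Gpr153* read 6.58 to 6.68 over all arrays, with a change of −0.01 (adjusted p = 0.960).

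*Gpr65*, also called TDAG8, senses protons outside the cell and raises cyclic AMP, and was found as a gene associated with T-cell death. It read 8.06 and 8.02 in EtOH and 9.24 and 9.20 in 4OHT, with all 4OHT values above all EtOH values. The change was 1.18 ± 0.071 (SE), or 2.27-fold (adjusted p = 0.00986, limma). Its adjusted p was 0.112 when EtOH 1 was left out, 0.133 when EtOH 2 was, and 0.0539 when 4OHT 2 was. The other proton-sensing genes did not pass the test. *Gpr132*, a receptor of lymphocytes and macrophages which is also counted with the lipid receptors, read 8.56 and 8.39 in EtOH and 8.84 and 8.69 in 4OHT (0.29, adjusted p = 0.242), and *Gpr4*, the acid sensor of endothelium, stayed dim, at 5.08 to 5.16 on all arrays.

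**Figure D2:**
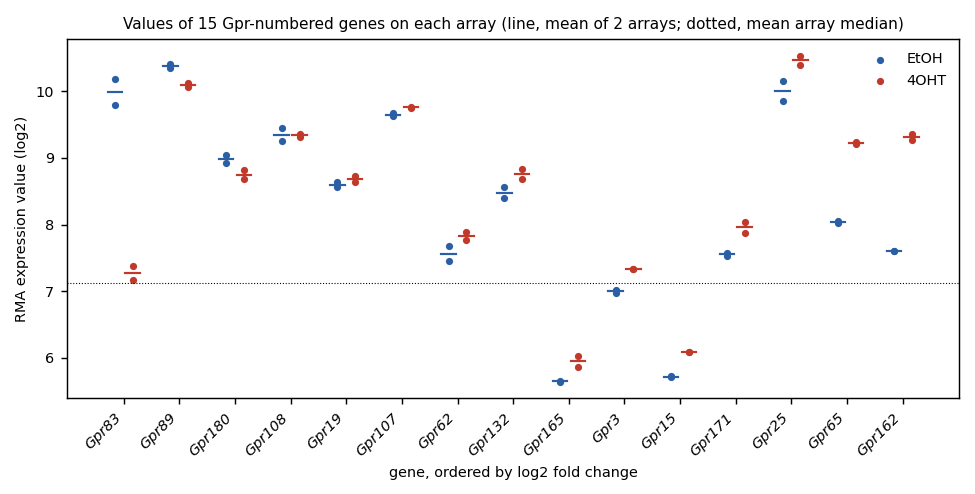
RMA expression values (log2, y axis) on each array for 15 Gpr-numbered genes (x axis, ordered by change), blue for EtOH and red for 4OHT, with a short line at the mean of 2 arrays and a dotted line at the mean array median. *Gpr83* drops from 9.80 and 10.18 to 7.16 and 7.39, and *Gpr65* and *Gpr162* lie higher in 4OHT.

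Among the other P2Y-like and chemoattractant-like receptors, none of 11 genes passed the test, and the changes ran from −0.05 to 0.46. In the limma fit 3 of the 11 had an unadjusted p under 0.05, against 20.4% of all genes. A group of this size cannot be told apart from that share. The 3 genes were *Gpr25*, *Gpr171* and *Gpr15*. *Gpr25*, a receptor of T cells, was bright, at 9.85 and 10.15 in EtOH and 10.53 and 10.40 in 4OHT (0.46 ± 0.13 SE, adjusted p = 0.156). *Gpr171*, expressed in T cells, read 7.53 and 7.57 in EtOH and 7.88 and 8.04 in 4OHT (0.41, adjusted p = 0.104). *Gpr15*, which guides T cells to the colon, read 5.73 and 5.71 in EtOH and 6.09 on both arrays in 4OHT (0.37, adjusted p = 0.0762). In each of these genes both 4OHT arrays were above both EtOH arrays, but *Gpr15* lay below the chemosensory level in both treatments. All of them passed the test where only probe sets with 1 gene symbol were fitted. That fit called many more genes of every kind: 1739 of the 19938 genes were lower and 1002 higher, against 597 and 246 in the main fit.

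None of the 10 lipid and metabolite receptors passed the test, with changes of −0.12 to 0.29. By limma 1 of them (*Gpr132*) had an unadjusted p under 0.05, against 20.4% of all genes. *Gpr31b* was the brightest after *Gpr132*, at 7.63 and 7.70 in EtOH and 7.64 and 7.59 in 4OHT. *Gpr183*, the oxysterol receptor that positions lymphocytes, lay near the array median, at 7.18 and 7.22 in EtOH and 7.04 and 7.13 in 4OHT (−0.12, adjusted p = 0.489). The lysophosphatidylserine receptors *Gpr34* and *Gpr174* were dim, at 4.35 to 4.47 and 4.86 to 5.12. *Gpr84*, a receptor for medium-chain fatty acids in myeloid cells, read 6.46 to 6.58.

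A group of 3 receptors raises cyclic AMP without a known need for ligand, and none of them passed the test in the limma fit. Only *Gpr3* had an unadjusted p under 0.05 by limma, against 20.4% of all genes. *Gpr3*, which keeps oocytes in meiotic arrest, read 7.02 and 6.98 in EtOH and 7.33 on both arrays in 4OHT (0.33 ± 0.071 SE, adjusted p = 0.100, limma). Both 4OHT arrays were above both EtOH arrays. *Gpr6* differed by 0.12 (adjusted p = 0.434), and *Gpr12* read 5.53 to 5.65 over all arrays.

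The group named brain-enriched and neuropeptide receptors was the largest. It held 30 genes, of which 12 were above the chemosensory level, against 64.2% of all genes. By limma 3 of the 30 had an unadjusted p under 0.05, against 20.4% of all genes. *Gpr162* and *Gpr83* passed the test, as did 4.23% of all genes, and the other 28 did not. *Gpr19* was the brightest of these, at 8.57 and 8.63 in EtOH and 8.64 and 8.73 in 4OHT (0.08, adjusted p = 0.616). *Gpr165* read 5.66 and 5.64 in EtOH and 5.86 and 6.03 in 4OHT (0.30, adjusted p = 0.186), below the chemosensory level. *Gpr62*, known from oligodendrocytes, read 7.68 and 7.45 in EtOH and 7.77 and 7.88 in 4OHT (0.26, adjusted p = 0.305). Of the class C receptors, *Gpr179* lay at 7.47 to 7.71 and *Gpr158* at 4.95 to 5.21, and neither passed the test, also not at an unadjusted p under 0.05 by limma. *Gpr141b*, which was put in no group, read 5.32 to 5.62.

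The 10 membrane proteins that carry a Gpr name but were not counted here as classical receptors held 4 of the 10 genes at least 1 above the array medians in a treatment. *Gpr89*, a Golgi protein that regulates pH, read 10.34 and 10.41 in EtOH and 10.12 and 10.06 in 4OHT (−0.29 ± 0.076 SE, adjusted p = 0.148, limma). *Gpr180* read 8.92 and 9.04 in EtOH and 8.69 and 8.81 in 4OHT (−0.23, adjusted p = 0.276). In both, the 4OHT arrays were below the EtOH arrays. The related trafficking proteins *Gpr107* and *Gpr108* read 9.62 to 9.76 and 9.25 to 9.45, with changes of 0.11 (adjusted p = 0.476) and −0.01 (adjusted p = 0.971). The sign of the *Gpr108* value turned with a second quantile normalization and when EtOH 2 or 4OHT 1 was left out. None of the 10 passed the test, and 1 (*Gpr89*) had an unadjusted p under 0.05 by limma, against 20.4% of all genes.

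**Figure D3:**
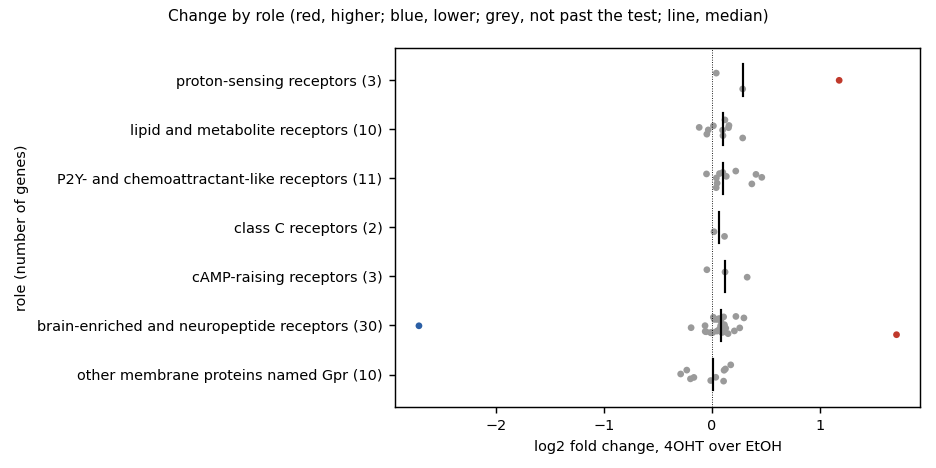
Log2 fold change, 4OHT over EtOH (x axis), of the Gpr-numbered genes by role (y axis, number of genes in parentheses), with *Gpr132* shown in both of its roles and *Gpr141b* left out. Black lines are medians, which lie between 0.01 and 0.29; the red and blue points are the 3 genes that passed the test.

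Positive differences were common among the 69 genes, counting those that passed the test as well. The change was above 0 in 52 of 69 genes (75.4%), against 57.7% of all genes and 70.2% of chemosensory probe sets. In 32 genes (46.4%) both 4OHT arrays lay above both EtOH arrays, against a background of 32.1%, and in 9 genes (13%) both lay below, against 24.5%, while 28 genes overlapped. Of the 36 genes not above the chemosensory level, 32 (88.9%) had a change above 0, and of the 33 above it, 20 (60.6%). This split is not independent of the direction of change. The level was 6.42 and 6.47 on the EtOH arrays but 6.59 and 6.56 on the 4OHT arrays, and passing it in 1 treatment sufficed. Genes that fell, such as *Gpr84*, could count as above it through EtOH alone, so the split itself can widen the gap. Shifting each array to the same median left 27 of the 69 genes with 4OHT arrays above EtOH arrays, against 25.3% of all genes. A second quantile normalization left 24 of the 69, against 28.9% of all genes. In both, the share among the 69 genes stayed above that of all genes. Among chemosensory probe sets the share was 34.2% as deposited, 25.0% with equal medians and 30.1% with the second normalization. Changes above 0 numbered 48 of the 69 genes with equal medians and 46 with the second normalization, against 52 as deposited. These counts depend on the scaling, and so does the background. The median change was 0.083 in the 69 genes and 0.031 in all genes.

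**Figure D4:**
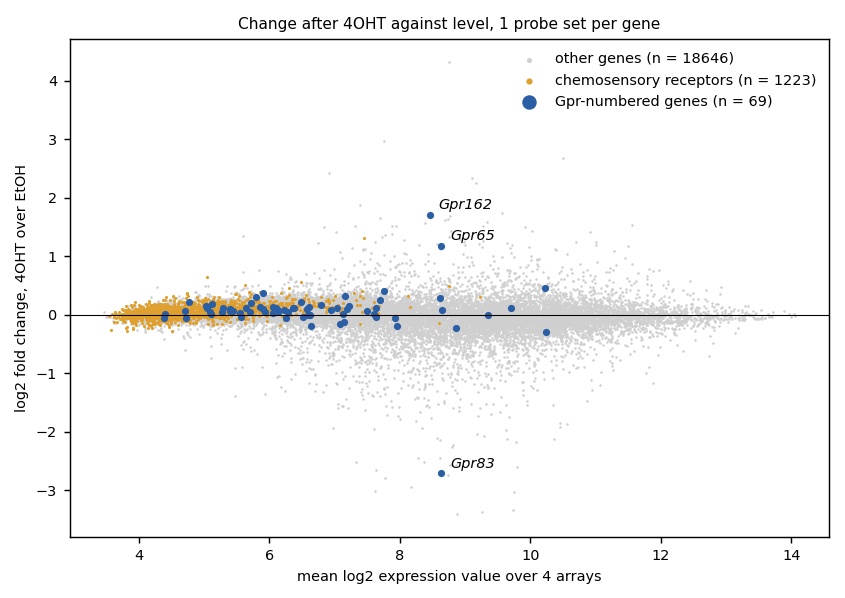
Log2 fold change, 4OHT over EtOH (y axis), against the mean log2 expression value over 4 arrays (x axis) for 1 probe set per gene, grey for other genes, orange for the 1223 chemosensory receptor genes and blue for the 69 Gpr-numbered genes. Apart from *Gpr162*, *Gpr65* and *Gpr83*, the blue points lie between −0.29 and 0.46.

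Of 75 genes of the machinery that carries receptor signals, 4 passed the test (5.33%, background 4.23%) and 20 had an unadjusted p under 0.05 (26.7%, background 20.4%). None passed when any 1 array was left out (10 to 15 had an unadjusted p under 0.05 by limma). Among 27 subunits of heterotrimeric G proteins, 1 rose, 1 fell and 25 did not pass. *Gnb4*, a β subunit, read 9.49 and 9.56 in EtOH and 10.19 and 10.28 in 4OHT (0.71, adjusted p = 0.0266), and *Gnb5*, the β subunit that partners R7 RGS proteins, read 8.29 and 8.27 in EtOH and 7.74 and 7.77 in 4OHT (−0.53, adjusted p = 0.0391). Among 18 RGS proteins, *Rgs14*, which acts on Gi proteins, rose by 0.56 (adjusted p = 0.0348) and 17 did not pass. Among 23 genes of cyclic AMP synthesis, breakdown and response, *Pde4b*, a cyclic AMP phosphodiesterase, fell by 0.58 (adjusted p = 0.0392) and 22 did not pass. None of 7 receptor kinases and arrestins passed in the limma fit, and 3 had an unadjusted p under 0.05. The median change was 0.089 in the G-protein subunits, 0.11 in the RGS proteins, 0.029 in the cyclic AMP genes and 0.076 in the kinases and arrestins, against 0.031 in all genes.

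The genes beside the 3 changed genes were also read, by their order in the RefSeq annotation. Of all genes, 4.23% passed the test in the limma fit. *Gpr162* lies next to *Cd4*, the T-cell co-receptor, which read 7.876 and 8.001 in EtOH and 10.40 and 10.17 in 4OHT (2.34 ± 0.11 SE, adjusted p = 0.00810, limma). The next gene, *Lag3*, an inhibitory receptor related to CD4, read 6.33 and 6.38 in EtOH and 6.88 and 6.92 in 4OHT (0.54, adjusted p = 0.0384). On the other side *P3h3* and *Gnb3* did not pass, with changes of −0.09 and 0.09. None of the 6 measured neighbours of *Gpr65*, nor of the 6 of *Gpr83*, passed the test. Some neighbours that did not pass had an unadjusted p under 0.05 by limma, a level that 20.4% of all genes reached. These were *Ptms* (0.62, adjusted p = 0.0616) near *Gpr162*, *Spata7* (−0.32) near *Gpr65*, and *Ankrd49* (−0.34), *Izumo1r* (−0.42) and *Hephl1* (0.23) near *Gpr83*.

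**Figure D5:**
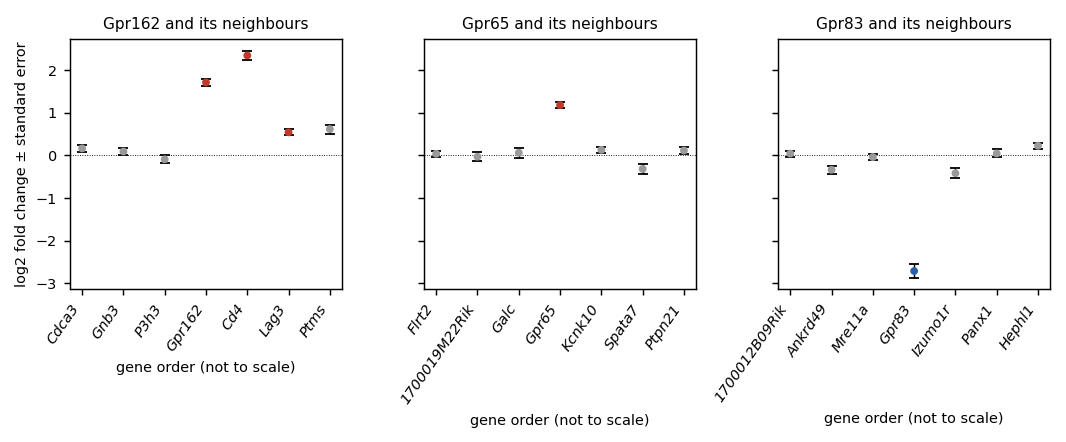
Log2 fold change, 4OHT over EtOH, with its standard error (y axis), of *Gpr162*, *Gpr65* and *Gpr83* and of 3 measured genes on each side in annotation order, not to scale (x axis). Red and blue mark genes that passed the test; *Cd4* (2.34) and *Lag3* (0.54) passed beside *Gpr162*, and no neighbour of the other 2 genes did.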

How the data were processed

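Biotin-labelled cDNA of 4 samples was hybridised to Affymetrix Mouse Gene ST 1.0 arrays. The deposited values are log2 levels of 35556 probe sets. They were made by RMA in Affymetrix Expression Console 1.1, according to the submitters' processing notes. RMA corrects background, quantile-normalizes between arrays and summarises probes, so a change shared by most genes cannot be seen and differences of dim probe sets are compressed. A genome build was not given in the sources used here. Array medians were 7.11 to 7.16. Correlations were 0.996 (EtOH arrays), 0.994 (4OHT arrays) and 0.989 to 0.990 between treatments. The number of arrays limits the precision.

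From the deposited log2 values, 4OHT was compared with EtOH by limma 3.58.1 under R 4.3.3 (two-sided moderated test from lmFit and eBayes, no filter, no block, 2 residual and 2.66 prior degrees of freedom). The Benjamini-Hochberg adjustment ran over every probe set. Of the probe sets, 21789 had 1 gene symbol, 1621 several and 12146 none by the platform annotation; the last 2 kinds stayed in the fit unnamed. All 69 symbols were current in RefSeq (GRCm38.p6), and 52 had an entry among the RefSeq promoters. *Gpr31b* had more than 1 probe set. Named genes were those called, those with a mean at least 1 above the array medians in a treatment, the 8 largest non-overlapping changes that were not called, up to 4 called genes per pathway list, and up to 2 of the brightest genes per role as examples. Other genes given with values, among them *Gpr153*, *Gpr183*, *Gpr34*, *Gpr174* and *Gpr84*, and all neighbours, were chosen after their values were seen. The members, roles and lists were chosen with earlier results of these data known.

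As alternatives, the fit was repeated with sample number as a block, on arrays quantile-normalized again or shifted to equal medians, on probe sets with a mean of at least 6 or with 1 symbol, with an intensity trend, with averaged probe sets per gene, and with each array left out, where a treatment's lone array takes its spread from the other treatment. The chemosensory level was also set at the 99th percentile. The scripts were tested on simulated data.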

Additional observations from a re-analysis of the deposited data

How the results depend on the processing

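With the sample number as a block, 0 Gpr-numbered genes were higher and 1 lower (8 higher at an unadjusted p under 0.05 by limma), with adjusted p-values of 0.0501 for *Gpr162*, 0.0584 for *Gpr65* and 0.0384 for *Gpr83*. All genes then gave 25 lower and 5 higher, against 597 and 246, and pathway genes 0 (16 unadjusted). Same-numbered arrays deviated with a correlation of −0.134. With 2 arrays per treatment this value cannot decide whether the numbers mark pairs. The crossed pairing, chosen after seeing the data, gave 389 lower and 146 higher among all genes and 0 pathway genes (18 unadjusted). With probe sets of 1 gene symbol alone, limma estimated 8.44 prior degrees of freedom in place of 2.66. Of the 69 Gpr-numbered genes, 7 were then higher and 2 lower. Of all 19938 genes, 1739 were lower and 1002 higher, and 11 pathway genes passed. The additional calls were *Gpr15*, *Gpr3*, *Gpr171*, *Gpr25*, *Gpr165* and *Gpr89*. With 1 array left out, limma called 0 to 1 Gpr-numbered genes lower and 0 to 2 higher, 0 to 178 of all genes lower and 0 to 63 higher, and 0 pathway genes. The 99th percentile left 18 genes above the chemosensory level in place of 33. *Gpr108* changed sign with a second quantile normalization (0.039) and ranged from −0.11 to 0.092 with 1 array left out. Equal array medians, an intensity trend, a minimum mean of 6 and averaged probe sets per gene changed no call among the 15 named genes, of which the minimum mean left 13 to test. *Gpr162* stayed between 1.67 and 1.75, *Gpr83* between −2.90 and −2.52 and *Gpr65* between 1.16 and 1.23 in every alternative run. Where a cause is not given by the number of arrays or the prior degrees of freedom, it was not tested. Differences in dim probe sets may be limited by signal near the chemosensory level, which was not tested.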

Other observations

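Directly adjacent genes in the RefSeq order were read for all 69 Gpr-numbered genes. Of 138 adjacent measured genes, 4 were higher and 5 lower after 4OHT in the limma fit (2.9% and 3.62%, against 1.23% and 2.99% of all genes). Together these are 9 genes (6.52%, against 4.23% of all genes), and they lie beside 8 of the 69. These were chosen after their values were seen. *Gpr171*, which did not pass, lies between *Med12l* (9.47 and 9.57 in EtOH, 8.76 and 8.65 in 4OHT, adjusted p = 0.0240) and *P2ry14*, a receptor for nucleotide sugars (7.64 and 7.56 in EtOH, 8.30 and 8.19 in 4OHT, adjusted p = 0.0346). *Gpr174* stayed dim beside *P2ry10b* (7.10 and 7.38 in EtOH, 8.12 and 8.41 in 4OHT, adjusted p = 0.0458).

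The largest change among adjacent genes after *Cd4* was that of *Wasf1*, a regulator of actin, which lies beside *Gpr6* and fell by 1.82 (adjusted p = 0.00810, limma), whereas *Gpr6* changed by 0.12 (adjusted p = 0.434).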
